A study of Mus musculus with 10 samples.

Results

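The genes described here are the calcium/calmodulin-dependent kinases and calcineurin: Camk1, Camk1d, Camkk2, Camk2a, Camk2b, Camk2d, Camk2g, the calcineurin catalytic subunits Ppp3ca and Ppp3cb, and the calcineurin regulator Rcan1. They were taken by gene symbol, 10 of the 56832 genes in the deposited count table, and all 10 were among the 12115 genes with enough counts to be tested. The list was chosen with the GFP+ against GFP- results of these same libraries known, so the values of the 10 genes in that contrast are given as a description, without a test. The cells were cardiomyocytes from mice of the genotype Sprr1a-GFP, whose green fluorescent reporter is named for Sprr1a, a small proline-rich protein. Every title carries the tag Hetz, and all animals, the source of GFP- cells included, had a myocardial infarction at 12 weeks of age and were sampled 5 days later. Langendorff digestion freed the cells, and flow cytometry divided those of each heart into GFP+ cells, labelled border zone cardiomyocytes, and GFP- cells, labelled remote zone cardiomyocytes. Both kinds of library were made from each of 5 animals, which gives 10 libraries in 5 pairs, and no uninjured heart enters the comparison. The titles of the GFP+ libraries name both DAPI-negative and DAPI-positive gates, and those of the GFP- libraries the DAPI-negative gate alone. GFP status and the DAPI gate therefore cannot be told apart. What drives the reporter is not given in the sources used here, nor is the way the DAPI-positive cells entered the GFP+ libraries.

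When calcium rises in a cell it binds calmodulin, and calcium-loaded calmodulin switches on a family of protein kinases and the phosphatase calcineurin. The kinase kinase Camkk2 phosphorylates CaMKI enzymes and AMPK, whereas CaMKII forms large assemblies that phosphorylate themselves and, in the heart, act on calcium handling proteins such as phospholamban and the ryanodine receptor. Calcineurin dephosphorylates NFAT transcription factors, which then enter the nucleus, a route known for its part in heart muscle growth, and Rcan1 is both an inhibitor of calcineurin and a classical target gene of NFAT.

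Total counts per library lay between 12244373 and 38879965. Mitochondrially encoded genes took 9.20 to 91.2% of them, and mouse 21A7 had both extremes, the highest share in its GFP+ and the lowest in its GFP- library. The 10 genes together had 1628 to 11485 counts per library. Levels are given as CPM, counts scaled to a common library size with the trimmed mean of M values (TMM), whose factors ran from 0.241 to 3.31. Sprr1a, which names the reporter, averaged 235 ± 70.5 CPM in GFP+ cells, against 3.44 ± 3.43 CPM in GFP- cells (SD, n = 5 each). All 8 cardiomyocyte markers were detected, with a summed level of 8630 to 29800 CPM in GFP+ and 3330 to 36500 CPM in GFP- libraries. The summed fibroblast markers lay between 264 and 5120 CPM in GFP+ and between 130 and 12100 CPM in GFP- libraries. In bulk RNA, fewer cells of a type and less RNA per cell cannot be told apart. By the wording of the titles there were 2 sets of mice, the 17C series with 17C1 and 17C2, and the 21A series, to which 21A4, 21A5 and 21A7 belong. Values per library are given in that order of mice. The 3 GFP- libraries of the 21A series stood apart in fibroblast markers, with 6510, 10800 and 12100 CPM. Those of the 17C series had 130 and 283 CPM. Fibroblast markers of GFP+ libraries were also higher in the 21A series, at 2050, 1760 and 5120 CPM, against 264 and 315 CPM in 17C. Only in the GFP- library of 21A7 did fibroblast markers, at 12100 CPM, exceed cardiomyocyte markers, at 3330 CPM.

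Camk1 and Rcan1 had the largest mean within-mouse differences of the 10 genes. Camk1 encodes CaMKI alpha, a cytosolic kinase that is switched on by calmodulin and by phosphorylation from a CaMKK. Its level was 170, 135, 88.5, 100 and 53.1 CPM in GFP+ libraries, against 33.2, 32.8, 23.9, 26.6 and 25.2 CPM in the GFP- libraries of the same mice. Every GFP+ library lay above every GFP- library. The averages were 109 ± 44.9 CPM in GFP+ libraries, against 28.3 ± 4.35 CPM in GFP- libraries (SD, n = 5 each). Within mice the log2 CPM difference was 1.85 ± 0.47 (SD, n = 5), from 1.07 in 21A7 to 2.36 in 17C1. The 2 mice of the 17C series averaged 2.20 and the 3 of the 21A series 1.62. Without mouse 21A7 the difference was 2.05 ± 0.22 (n = 4). The GFP+ library of that mouse had the highest share of mitochondrial counts, and its GFP- library had a higher sum of fibroblast than of cardiomyocyte markers. A mitochondrial majority was not particular to it. Mitochondrial shares were 49.3, 47.69, 73.05, 35.7 and 91.21% in GFP+ libraries, against 61.95, 58.14, 35.68, 26.5 and 9.195% in GFP- libraries. The part of these shares in the differences was not tested. The GFP- libraries lay close to each other, and the GFP+ libraries carried most of the spread. In the annotation of the earlier mouse build, 232 exon bases of Camk1 overlap Ogg1, a DNA repair gene on the other strand, and the library kit does not mark strand. Ogg1 itself had 2.45 ± 1.41 CPM in GFP+ and 0.809 ± 0.528 CPM in GFP- libraries, far below Camk1.

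**Figure D1:**
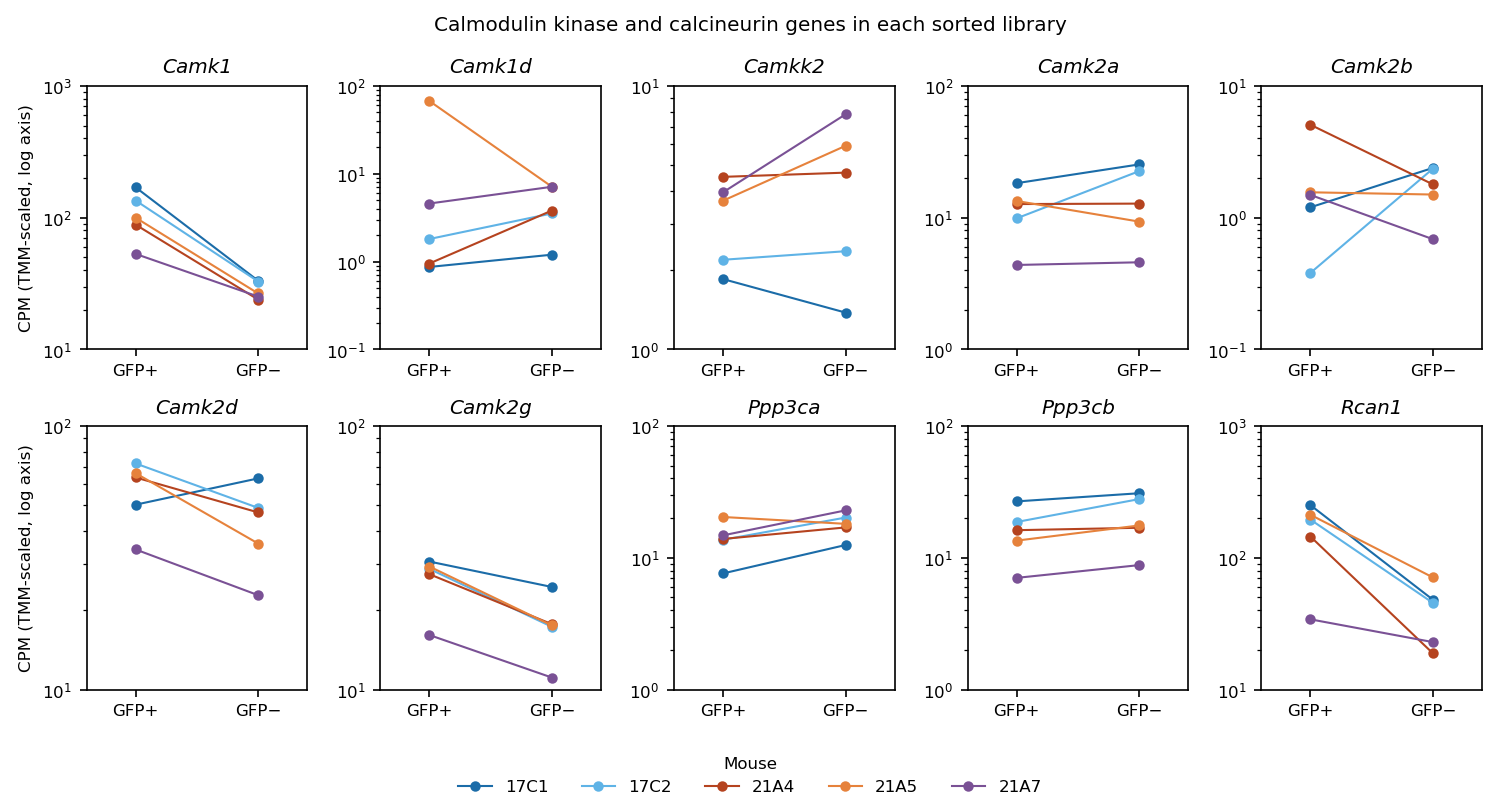
Level of each of the 10 genes in CPM (TMM-scaled, log axis, different range in each panel) in the GFP+ library (left) and the GFP- library (right) of each mouse, with lines joining libraries of 1 mouse. For Camk1 all GFP+ points lie above all GFP- points, for Rcan1 the GFP+ point of 21A7 lies at 34.1 CPM among the GFP- points, and in Camk1d a single GFP+ library, 21A5, stands at 67.5 CPM.

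The other CaMKI gene and the upstream kinase behaved otherwise. Camk1d encodes CaMKI delta. It had 0.870, 1.81, 0.952, 67.5 and 4.59 CPM in GFP+ libraries, against 1.20, 3.54, 3.82, 7.12 and 7.12 CPM in GFP- libraries. The GFP+ library of mouse 21A5, with 1470 counts of Camk1d, lay far above the other 9. The GFP+ average of 15.1 ± 29.3 CPM is set by that library, and the GFP- average was 4.56 ± 2.55 CPM. In the other 4 mice Camk1d was lower in the GFP+ library each time, at 2.05 ± 1.74 CPM in GFP+ against 3.92 ± 2.44 CPM in GFP- libraries, a within-mouse log2 difference of -0.98 ± 0.66 (SD, n = 4). With 21A5 included it was -0.14 ± 1.97 (n = 5). Camkk2, which activates the CaMKI enzymes, averaged 3.24 ± 1.16 CPM in GFP+ and 4.43 ± 2.61 CPM in GFP- libraries. Its within-mouse difference of -0.28 ± 0.54 was smaller than its spread, with 17C1 at 0.41 and 21A7 at -0.97.

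The CaMKII subunits come from 4 genes. Camk2d encodes the delta subunit, the main form known in heart muscle. It had 50.3, 72.1, 63.8, 66.2 and 34.0 CPM in GFP+ libraries, against 63.3, 48.9, 47.0, 35.8 and 22.8 CPM in GFP- libraries. The groups overlapped, 17C1 went the other way, and the within-mouse log2 difference was 0.43 ± 0.45 (SD, n = 5). Camk2g encodes the gamma subunit, the other form known in the heart. Its level was 30.6, 28.7, 27.4, 29.3 and 16.1 CPM in GFP+ libraries, against 24.5, 17.3, 17.7, 17.5 and 11.1 CPM in GFP- libraries. Camk2g was higher in the GFP+ library of all 5 mice, although the groups overlapped through the low GFP+ library of 21A7. The within-mouse difference of 0.59 ± 0.17 had the smallest spread of the 10 genes. These signs for Camk2d and Camk2g hold under TMM and under the size factors of DESeq2 and turn round when only library totals are used, to -0.73 and -0.56. With totals alone the median difference of all tested genes was -1.16, and relative to that median Camk2d stood at 0.43 and Camk2g at 0.59.

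Camk2a and Camk2b encode the alpha and beta subunits, best known from neurons. Camk2a had 18.3, 9.90, 12.7, 13.4 and 4.38 CPM in GFP+ libraries, against 25.4, 22.6, 12.8, 9.34 and 4.59 CPM in GFP- libraries. It was lower in the GFP+ library of both 17C mice, close to equal in 21A4 and 21A7 and higher in 21A5, with a within-mouse log2 difference of -0.24 ± 0.63 (SD, n = 5). Camk2b had 4 to 64 counts in GFP+ and 30 to 94 counts in GFP- libraries, so its values rest on few reads. Its level was 1.20, 0.381, 5.08, 1.56 and 1.49 CPM in GFP+ libraries, against 2.39, 2.36, 1.79, 1.5 and 0.687 CPM in GFP- libraries. The difference was -0.95 and -2.40 in the 17C mice and 1.46, 0.05 and 1.04 in the 21A mice, so the 2 series had opposite signs under TMM scaling.

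**Figure D2:**
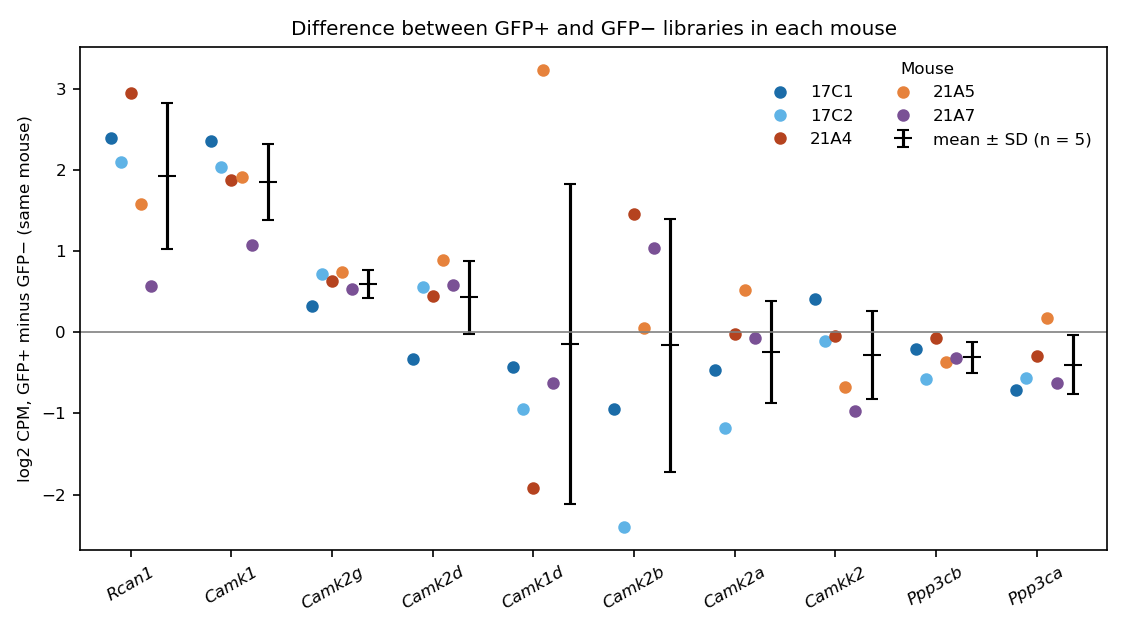
Difference in log2 CPM (TMM-scaled) between the GFP+ and the GFP- library of the same mouse for each gene, 1 point per mouse, with the mean and SD over 5 mice in black beside them. Rcan1 at 1.92 ± 0.90 and Camk1 at 1.85 ± 0.47 have all 5 points above 0, Camk2g at 0.59 ± 0.17 has too under this scaling though its mean is below 0 with library totals alone, and Ppp3cb at -0.31 ± 0.19 has all 5 below 0.

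The make-up of CaMKII transcripts within a library does not depend on scaling between libraries. Of all counts of the 4 Camk2 genes, Camk2d took 58.9 ± 5.41% in GFP+ libraries, against 56.3 ± 2.34% in GFP- libraries (SD, n = 5 each), the largest share in each library. Camk2g took 27.3 ± 2.20% in GFP+ and 23.6 ± 4.04% in GFP- libraries, and was higher in 4 of 5 mice. Camk2a took 18.2, 8.92, 11.6, 12.1 and 7.81% in GFP+ libraries, against 22, 24.8, 16.2, 14.6 and 11.7% in GFP- libraries. Its share was lower in the GFP+ library of all 5 mice, a mean difference of -6.10 ± 5.51 percentage points, and the largest gap was in 17C2. In that mouse the 95% Wilson intervals were 7.42 to 10.7% in the GFP+ and 22.4 to 27.4% in the GFP- library, apart from each other, as they were in 21A4. The intervals overlapped in 17C1 and 21A5, and in 21A7 they met at 10.4%. Such intervals cover counting error only, since PCR copies are not separate molecules. Camk2b took 2.05 ± 1.68% in GFP+ and 2.21 ± 0.314% in GFP- libraries. These shares rest on 525 to 2405 Camk2 counts per GFP+ library and 1158 to 4156 per GFP- library. Dividing counts by transcript length gave Camk2a a larger share, 22.6 ± 6.66% in GFP+ and 32.3 ± 8% in GFP- libraries, again lower in the GFP+ library of 5 of 5 mice. Within a library the log2 ratio of Camk2d to Camk2a was higher in GFP+ cells by 0.67 ± 0.63, in 5 of 5 mice.

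**Figure D3:**
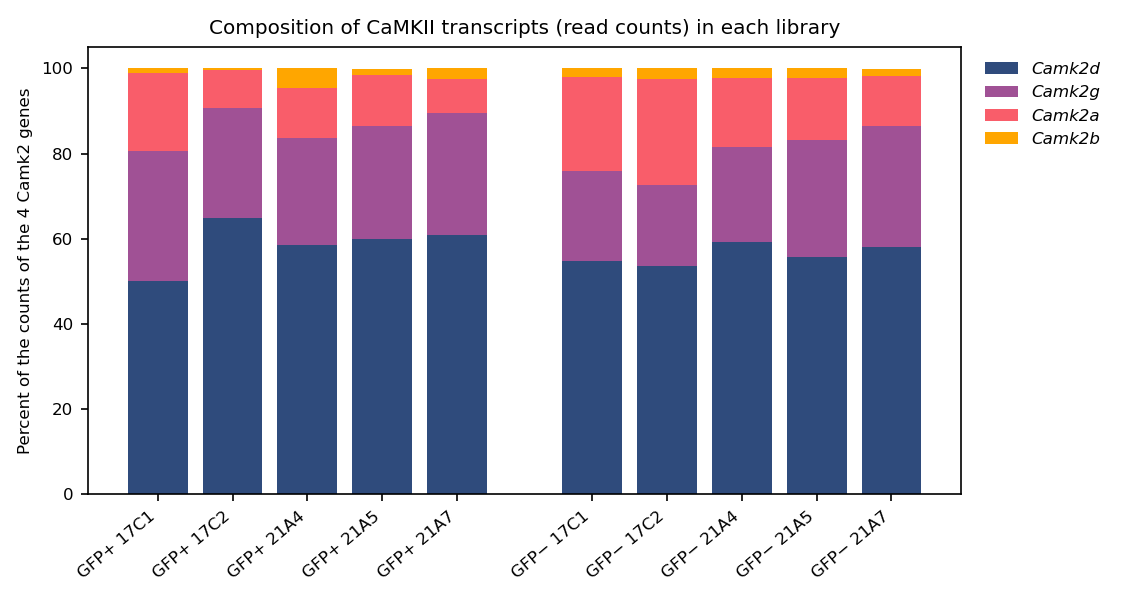
Percent of the counts of the 4 Camk2 genes taken by each gene in the 5 GFP+ libraries (left) and the 5 GFP- libraries (right), stacked to 100. Camk2d is the largest part of each bar, and the Camk2a part is smaller in the GFP+ bar than in the GFP- bar of every mouse, with means of 11.7% in GFP+ and 17.8% in GFP- libraries.

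The calcineurin catalytic subunits ran slightly the other way. Ppp3ca encodes the alpha form. It had 7.61, 13.7, 13.9, 20.4 and 14.8 CPM in GFP+ libraries, against 12.5, 20.2, 17, 18.1 and 22.9 CPM in GFP- libraries. The groups overlapped, and the GFP+ library was the lower one in 4 of 5 mice, with a log2 difference of -0.40 ± 0.36 (SD, n = 5). Ppp3cb encodes the beta form, known from mouse knockouts for its part in heart growth. Its level was 26.8, 18.7, 16.2, 13.5 and 7.04 CPM in GFP+ libraries, against 30.9, 27.9, 16.9, 17.6 and 8.8 CPM in GFP- libraries. The mice differed from each other more than the 2 libraries of a mouse did, and the GFP+ library was lower in all 5, by a mean log2 difference of -0.31 ± 0.19. The ratio of the alpha to the beta form differed by -0.09 ± 0.40 between the libraries of a mouse, less than its spread.

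Rcan1, the calcineurin inhibitor, had the largest mean difference of the 10 genes. It stood at 251, 195, 145, 212 and 34.1 CPM in GFP+ libraries, against 48.0, 45.4, 18.8, 70.9 and 22.9 CPM in GFP- libraries. In 4 mice the GFP+ library lay above every GFP- library, and that of 21A7 lay among them, so the groups overlapped. The averages were 167 ± 83.8 CPM in GFP+ libraries, against 41.2 ± 21.1 CPM in GFP- libraries (SD, n = 5 each), and the within-mouse log2 difference was 1.92 ± 0.90, from 0.57 in 21A7 to 2.94 in 21A4. It averaged 2.24 in 17C mice, 1.70 in 21A mice, and 2.25 ± 0.57 without 21A7 (n = 4). Set against its own target within each library, the log2 ratio of Rcan1 to the sum of Ppp3ca and Ppp3cb averaged 2.20 ± 0.90 in GFP+ and -0.05 ± 0.70 in GFP- libraries. This ratio was higher in the GFP+ library of all 5 mice, by 2.73, 2.67, 3.12, 1.65 and 1.11. The ratio of Camk1 to the summed Camk2 genes was 0.10 ± 0.42 in GFP+ and -1.38 ± 0.47 in GFP- libraries, with no overlap between the groups. The ratio of Camk1 to Rcan1 differed by -0.06 ± 0.60 between the libraries of a mouse, less than its spread. With library totals alone Camk1 averaged 0.69 and Rcan1 0.76, each higher in 4 of 5 mice, which is 1.85 and 1.92 above the median of all genes under that scaling.

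Rcan1 is known to be read from 2 start sites, and the internal one is the one known to answer to calcineurin and NFAT. The count table gives 1 value per gene, so the 2 starts cannot be told apart here. The 250 bases before each start are shown from RefSeq (GRCm38.p6, minus strand, 5′ to 3′), since Rcan1 and Camk1 had the largest differences. The first Rcan1 start has chr16:92466170-92466419 before it, the internal start has chr16:92400079-92400328, and the Camk1 start has chr6:113343923-113344172. Capitals mark an NFAT core (GGAAA), a cyclic AMP response element (TGACGTCA) or an AP-1 element (TGANTCA), each searched on both strands.
Rcan1 first start: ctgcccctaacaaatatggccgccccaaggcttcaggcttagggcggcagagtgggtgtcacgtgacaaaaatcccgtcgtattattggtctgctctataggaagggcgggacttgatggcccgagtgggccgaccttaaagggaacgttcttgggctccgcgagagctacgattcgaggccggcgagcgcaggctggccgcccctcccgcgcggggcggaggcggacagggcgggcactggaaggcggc
Rcan1 internal start: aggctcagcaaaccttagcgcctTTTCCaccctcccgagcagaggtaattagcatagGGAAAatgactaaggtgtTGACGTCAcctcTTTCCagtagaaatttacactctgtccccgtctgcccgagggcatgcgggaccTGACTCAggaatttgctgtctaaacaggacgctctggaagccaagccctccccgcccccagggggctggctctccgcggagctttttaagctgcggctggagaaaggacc
Camk1: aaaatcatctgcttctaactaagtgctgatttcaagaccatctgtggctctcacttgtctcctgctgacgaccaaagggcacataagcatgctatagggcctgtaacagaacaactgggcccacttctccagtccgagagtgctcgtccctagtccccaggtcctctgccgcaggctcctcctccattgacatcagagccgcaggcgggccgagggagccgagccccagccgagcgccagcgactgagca
The internal Rcan1 start had 3 NFAT cores, whose first bases lie 227, 193 and 163 bases before the start, 1 cyclic AMP response element at 175 and 1 AP-1 element at 110, and none of these motifs overlap. The windows of the first Rcan1 start and of Camk1 held none of the 3 motifs. Among 32851 RefSeq promoter windows of the same length, 55.6% held at least 1 NFAT core and 21.4% at least 2, so that a match of this short motif is common. A cyclic AMP response element was in 1.55% and an AP-1 element in 6.75% of them. Of the other members, Ppp3cb had 3 NFAT cores and Camk2d 1, Camk1d had 1 at each of 2 starts, and Camkk2 and Camk2b had none. The table covers 7 of the 10 genes, without Camk2a, Camk2g and Ppp3ca. A match is a run of letters and not a bound site.

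The counts of members past a threshold are set here beside those of all genes, and nothing is read from them because the contrast was known when the list was made. With edgeR's quasi-likelihood test without pairing, 0 members had an adjusted p under 0.05, against 0.0825% of all 12115 genes, and 2 (Camk1 and Rcan1) had an unadjusted p under 0.05, against 8.18%. With the mouse as a block, Camk1 passed the adjusted threshold, which 0.858% of genes did. Its log2 fold change was 1.95 ± 0.33 (SE) without and 1.86 ± 0.25 with the block, and that of Rcan1 was 2.02 ± 0.53 and 1.93 ± 0.36. Left out in turn under the block, mice 17C2, 21A4 and 21A5 each took the call of Camk1 away, and without 21A7 both Camk1 and Rcan1 passed. DESeq2 called Camk1 and Rcan1 beside 1.70% of genes, and limma voom called the same pair beside 2.77%. Of direction alone, 3 members (Camk1, Camk2g and Rcan1) were higher in 5 of 5 mice, as were 9.14% of genes, and 1 (Ppp3cb) was lower in 5 of 5, as were 8.02%. Camk1 alone had groups without overlap and a higher GFP+ level, a pattern of 1.54% of genes, and no member had the opposite one, which 0.916% had.

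Levels of different genes were compared as CPM per kilobase of the median coding transcript. Camk1 and Rcan1 led in both groups. Camk1 stood at 72.9 ± 29.9 and Rcan1 at 75.4 ± 37.7 CPM per kb in GFP+ libraries, against 18.9 ± 2.90 and 18.6 ± 9.52 CPM per kb in GFP- libraries (SD, n = 5 each). Camk2d came next, with 13.7 ± 3.65 CPM per kb in GFP+ and 10.4 ± 3.64 in GFP- libraries. In the order of mean log2 levels, GFP+ libraries continued with Camk2g, Camk2a, Ppp3ca, Ppp3cb, Camk1d, Camkk2 and Camk2b, the last at 1.03 ± 0.965 CPM per kb. GFP- libraries continued with Ppp3ca, Camk2a, Ppp3cb, Camk2g, Camk1d, Camkk2 and Camk2b, the last at 0.930 ± 0.374 CPM per kb. Among neighbours in these orders, the intervals of 1 SD around the mean log2 level were apart only for Rcan1 and Camk2d and for Camk2d and Camk2g, both in GFP+ libraries. With the length of all merged exons instead, Camk2g lay above Camk2d in both groups and Rcan1 above Camk1.

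Whether the GFP effect differed between the 21A and the 17C mice was tested for all genes, in an edgeR model with the mouse as a block and the interaction of group and series. No member passed after adjustment over all 12115 genes, whereas 7.62% of genes did, and 2 members (Camk2a and Camk2b) had an unadjusted p under 0.05, against 25.7% of genes. The effect on Camk2b was more positive in the 21A mice by 2.63 ± 1.18 (log2, SE; edgeR adjusted p = 0.195), and that on Camk2a by 0.98 ± 0.43 (edgeR adjusted p = 0.185). For Camk1 the difference was -0.57 ± 0.37 (edgeR adjusted p = 0.371) and for Rcan1 -0.55 ± 0.59 (edgeR adjusted p = 0.618). With 2 mice in a series these errors leave room for sizeable differences.

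The rest of the pathway was followed in 102 other genes sorted by role, of which 90 had enough counts. These lists too were made with earlier results of these data known, so the p-values below do not come from an independently chosen list. Without pairing, edgeR called 0 of the 90 at an adjusted p under 0.05, and 13 had an unadjusted p under 0.05, beside 8.18% of all genes. Of the 13, 8 were higher and 5 lower in GFP+ cells. With the mouse as a block 2 were called, Prkab2 and Pdlim5, both higher in GFP+ cells, beside 0.858% of all genes. DESeq2 called Prkab2, Prkag2 and Fkbp1a as higher and Mylk4 as lower, and limma voom Prkab2, Prkag2 and Dapk3 as higher and Mylk4 as lower. Of all genes, 1.70% passed in DESeq2 and 2.77% in limma voom. In the 17C mice alone 18 of 85 tested passed, beside 9.53% of all genes, and of the 18, 6 were higher and 12 lower. The 21A mice alone gave 0 calls, as they did over all genes (0%). Of the 90 pathway genes tested there, 8 had an unadjusted p under 0.05, beside 1621 of all 13221 genes. The groups did not overlap in 4 pathway genes, of which Prkag3, Fkbp1a and Prkag2 were higher in GFP+ cells and Hdac4 lower, beside 1.54% of all genes for higher and 0.916% for lower. On library totals alone, under which the median of all genes falls below 0, the log2 fold changes of Add1, Fkbp1a, Cib1, Ppp3r1, Nrgn and Prkaa2 were also below 0.

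The AMPK genes, which encode the energy sensor that Camkk2 also phosphorylates, held 1 of the 2 genes called with the block. Prkab2 encodes a regulatory beta subunit of AMPK that is common in muscle. It had 58.6, 32, 36.6, 60.4 and 14.8 CPM in GFP+ libraries, against 15.9, 9.37, 11.5, 12.4 and 3.63 CPM in GFP- libraries. All 5 mice had the higher level in GFP+ cells, and the groups overlapped only through the GFP+ library of 21A7. Its log2 fold change was 1.94 ± 0.45 (SE; edgeR adjusted p = 0.165) without pairing and 1.93 ± 0.20 (edgeR adjusted p = 0.0201) with the mouse as a block. The blocked call held without 17C1 or without 21A7 and was lost without 17C2, 21A4 or 21A5 (edgeR adjusted p = 0.0780, 0.223 and 0.0805). Prkag2, a gamma subunit, averaged 16.3 ± 6.05 CPM in GFP+ and 6.97 ± 1.65 CPM in GFP- libraries, with a log2 fold change of 1.22 ± 0.32 that did not pass in edgeR (adjusted p = 0.232, and 0.0698 with the block). The catalytic subunit Prkaa2 averaged 46.8 ± 20.4 CPM in GFP+ and 43.3 ± 32.2 CPM in GFP- libraries. Its effect was more positive in the 21A than in the 17C mice by 1.48 ± 0.37 (log2, SE; edgeR interaction adjusted p = 0.0430). That call was lost when any 1 mouse was left out (edgeR adjusted p from 0.0533 to 0.192), without the block (0.584) and with DESeq2 size factors in edgeR (0.0502). DESeq2's own test called it (adjusted p = 0.00889), and on library totals the difference turned to -0.71 (edgeR adjusted p = 0.707). Of 8 AMPK genes, 3 were higher in 5 of 5 mice, beside 9.14% of all genes, while Prkab1, the other beta subunit, had a log2 fold change of -1.02 ± 0.43 (edgeR adjusted p = 0.581) and Prkag1, another gamma subunit, one of -0.47 ± 0.44 (edgeR adjusted p = 0.804). The median blocked log2 fold change of the 8 was 0.34, beside -0.04 for all tested genes.

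Pdlim5, which encodes a Z-disc scaffold that binds protein kinases, was the other gene called with the block and stands in the list of CaMKII inhibitors and anchors. It had 508, 507, 347, 441 and 101 CPM in GFP+ libraries, against 191, 213, 126, 132 and 36.9 CPM in GFP- libraries. The level varied among mice, with 21A7 low in both groups, while the log2 difference within a mouse varied less, at 1.46 ± 0.18 (SD, n = 5). The edgeR log2 fold change was 1.45 ± 0.53 (SE; adjusted p = 0.503) without pairing and 1.46 ± 0.24 (adjusted p = 0.0418) with the block, and the blocked call held only when 17C1 was the mouse left out. Add1, which encodes a membrane skeleton protein, averaged 77.8 ± 11.8 CPM in GFP+ and 62.5 ± 10.9 CPM in GFP- libraries (edgeR adjusted p = 0.755). Camk2n1, an inhibitor of CaMKII, averaged 3.19 ± 1.70 CPM in GFP+ and 4.54 ± 0.957 CPM in GFP- libraries (edgeR adjusted p = 0.802). The median blocked log2 fold change of the 6 genes tested in this list was 0.21.

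Among calmodulin genes and calmodulin-binding proteins, 5 of 8 were tested and 0 passed in the GFP contrast, with or without the block. Calm2 averaged 45.5 ± 13.9 CPM in GFP+ and 54.9 ± 19.8 CPM in GFP- libraries (edgeR adjusted p = 0.846), and Calm3 86.7 ± 10.5 CPM in GFP+ and 95.5 ± 9 CPM in GFP- libraries (edgeR adjusted p = 0.891). Nrgn, a calmodulin-binding protein of neurons, averaged 1.19 ± 1.52 CPM in GFP+ and 0.577 ± 0.349 CPM in GFP- libraries (edgeR adjusted p = 0.772). Its GFP+ mean was carried by 21A7 at 3.84 CPM, and the log2 fold change was 1.02 with that library and -0.08 without it. The median blocked log2 fold change of the 5 genes tested was 0.24.

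Of the other calmodulin-regulated kinases and their phosphatases, 15 of 20 genes were tested, with a median blocked log2 fold change of -0.10. Mylk4, a myosin light chain kinase family gene of heart and muscle, had 1.20, 5.90, 9.67, 5.51 and 6.19 CPM in GFP+ libraries, against 54.1, 43.4, 38.1, 14.5 and 5.15 CPM in GFP- libraries. It was lower in the GFP+ library of 4 mice, and in 21A7 both libraries were low. The edgeR log2 fold change was -2.44 ± 0.64 (SE; adjusted p = 0.235), and 3 alternatives with all mice passed, DESeq2 (adjusted p = 0.00978), limma voom (adjusted p = 0.0443) and edgeR on library totals (adjusted p = 0.0458). Mylk, the smooth muscle kinase, averaged 2.66 ± 1.67 CPM in GFP+ and 11.1 ± 9.77 CPM in GFP- libraries (edgeR adjusted p = 0.575). Its log2 fold change of -2.06 was -3.72 on library totals (edgeR adjusted p = 0.0458) and -0.20 in the 17C mice alone. Its high values were the 15.2, 24.4 and 13.1 CPM of the 21A GFP- libraries. In those libraries summed mural cell markers were 439, 590 and 317 CPM, against 181 and 226 CPM in the 17C GFP- libraries, and the part of such cells in the Mylk values was not tested.

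Among 17 CaMKII substrates the median blocked log2 fold change was -0.20. Hdac4, a class II histone deacetylase that CaMKII drives out of the nucleus, had 7.72, 2.95, 7.22, 6.29 and 7.58 CPM in GFP+ libraries, against 12.0, 14.7, 11.7, 10.9 and 11.1 CPM in GFP- libraries. Every GFP+ library lay below every GFP- library. Its log2 fold change of -0.93 ± 0.30 (SE) had an edgeR adjusted p of 0.415. It did not pass with the block either (edgeR adjusted p = 0.204).

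Of the other calcineurin subunits, anchors and inhibitors, 17 were tested, and the median blocked log2 fold change was 0.34. Ppp3r1, the regulatory subunit that pairs with Ppp3ca and Ppp3cb, averaged 17.7 ± 6.46 CPM in GFP+ and 15.6 ± 3.77 CPM in GFP- libraries (edgeR log2 fold change 0.19 ± 0.29, adjusted p = 0.886). Fkbp1a encodes the immunophilin FKBP12, which binds calcineurin when loaded with the drug FK506 and also binds the ryanodine receptor. It had 86.5, 61.6, 56.6, 71.9 and 55.9 CPM in GFP+ libraries, against 27.4, 35.6, 40.6, 38.5 and 40.1 CPM in GFP- libraries. The groups did not overlap, and the log2 fold change of 0.87 ± 0.24 (SE) had an adjusted p of 0.296 in edgeR and 0.0167 in DESeq2. It turned to -0.37 on library totals alone, below 0 but above the shift of all genes under that scaling. Cib1, a calcium-binding protein that tethers calcineurin at the muscle membrane, averaged 7.84 ± 3.20 CPM in GFP+ and 4.10 ± 0.786 CPM in GFP- libraries (edgeR adjusted p = 0.549).

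Downstream of calcineurin, 22 of 23 genes of the NFAT, MEF2 and CRTC factors and their kinases were tested, edgeR called 0 of them over all 5 mice with or without the block, and the median blocked log2 fold change was -0.20. Mef2a, a muscle transcription factor, had 33.1, 30.5, 40.3, 34.3 and 27.2 CPM in GFP+ libraries, against 73.8, 77.1, 52.1, 40.8 and 31.8 CPM in GFP- libraries. It was lower in the GFP+ library of 5 of 5 mice, with the widest gaps in the 17C mice, and the log2 fold change was -0.74 ± 0.29 (SE; edgeR adjusted p = 0.550), or -1.24 in the 17C mice alone (edgeR adjusted p = 0.0121). Nfatc3, an NFAT factor known in mouse heart growth, was also lower in 5 of 5 mice, at 8.89 ± 3.46 CPM in GFP+ and 13.9 ± 3.24 CPM in GFP- libraries (log2 fold change -0.65 ± 0.30, edgeR adjusted p = 0.617).

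**Figure D4:**
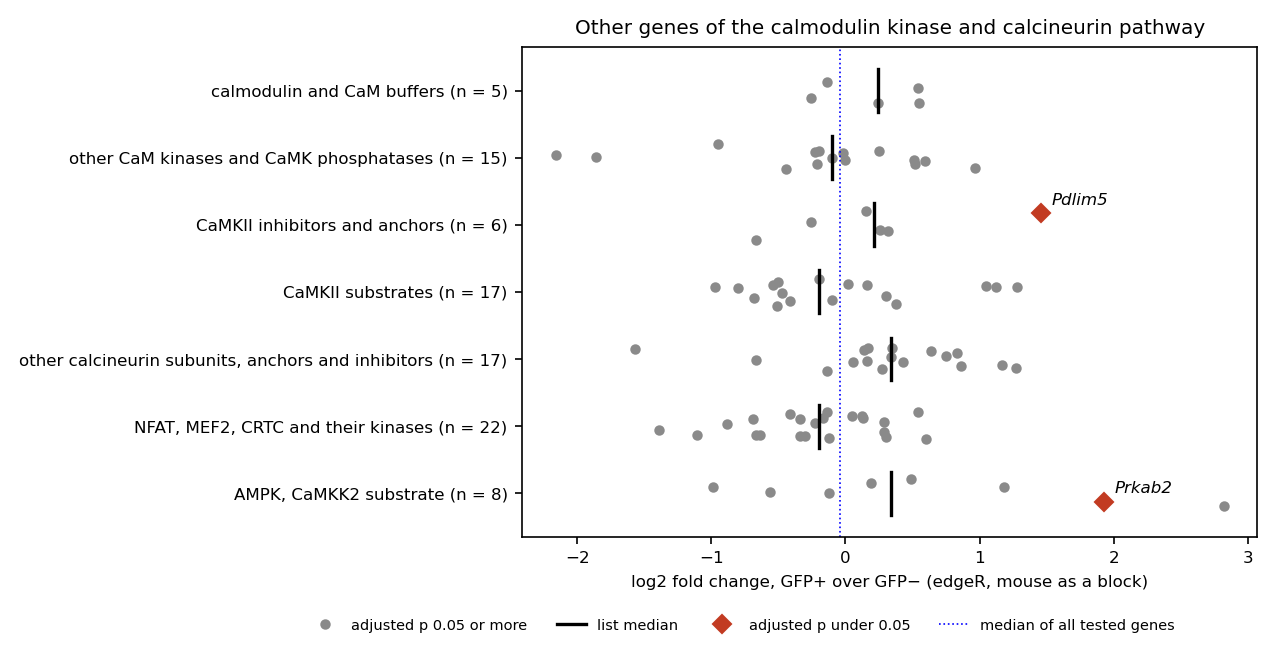
Log2 fold change, GFP+ over GFP-, from edgeR with the mouse as a block, for the 90 tested pathway genes outside the 10 described, 1 point per gene with vertical jitter, grouped by role. Black bars are list medians, the dotted line is the median of all tested genes (-0.04), and red diamonds are the genes with an adjusted p under 0.05, Prkab2 at 1.93 and Pdlim5 at 1.46.

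Across the 90 pathway genes, 16 had a GFP effect that differed between the mouse series at an edgeR interaction adjusted p under 0.05, beside 7.62% of all tested genes, and in 14 of them the effect was more positive in the 21A mice. The list of CaMKII substrates held 4 of them, all more positive in the 21A mice, and its median difference was 1.39, against 0.01 for all tested genes. The AMPK genes held 1, Prkaa2. These counts and their direction depend on the fit. DESeq2 called 31 pathway genes, beside 16.3% of all genes. The count was 0 without the mouse block, where 0% of all genes passed, and 0 without 17C1 or without 21A5. On library totals it was 0 too, and the 473 genes called there, 3.90% of all, were all more negative in the 21A mice, so the direction of the 14 rests on the TMM scaling. The 2 series also differed in the make-up of their GFP- libraries. Summed cardiomyocyte markers were 26700, 15700 and 3330 CPM in the 21A GFP- libraries, against 32600 and 36500 CPM in the 17C GFP- libraries. The fibroblast sums of these libraries, given above, went the other way. In GFP+ libraries too, fibroblast sums were higher in the 21A mice. The part of this make-up in the series differences was not tested.

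Markers of other cells were counted beside the members. Macrophage markers summed to 20.9 to 292 CPM in GFP+ and 20.3 to 624 CPM in GFP- libraries, endothelial markers to 49.3 to 338 CPM in GFP+ and 84.5 to 634 CPM in GFP- libraries, and all 8 of each list were tested. Mural markers, 7 of 8 tested, summed to 214 to 259 CPM in GFP+ and 181 to 590 CPM in GFP- libraries. Lymphocyte markers summed to 0.544 to 4.80 CPM in GFP+ and 0.897 to 4.82 CPM in GFP- libraries with Cd3e, Cd3g and Ms4a1 at 0 everywhere, and neutrophil markers to at most 9.50 CPM in GFP+ and 11.5 CPM in GFP- libraries with Ly6g at 0. The 2 lists with a higher sum in the GFP+ library of 5 of 5 mice, as with Camk1, Camk2g and Rcan1, were mesothelial markers, all 6 tested, at 87.7 to 357 CPM in GFP+ and 0.718 to 161 CPM in GFP- libraries, and neural and Schwann markers, at 13.6 to 27.7 CPM in GFP+ and 0.120 to 9.44 CPM in GFP- libraries. Of the 8 neural and Schwann markers 1 was tested, Tubb3, and Snap25, Rbfox3 and Syt1 were at 0 in all libraries. The part of such cells in the values of the 10 genes was not tested.

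The gene most like Rcan1 across the 10 libraries, by Pearson correlation of log2 CPM among 4697 genes with a mean of at least 10 CPM, was Tnfrsf12a, the receptor of the cytokine TWEAK, at r = 0.985. Mal followed at 0.965, Uck2 at 0.953, Hspb1 at 0.944 and Hbegf at 0.941, where Uck2 encodes a uridine-cytidine kinase, Hspb1 a small heat shock protein and Hbegf a growth factor. These genes share the 10 libraries and the GFP+ against GFP- contrast with Rcan1, so the correlations describe likeness and carry no test.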

How the data were processed

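RNA of sorted cardiomyocytes was sequenced, 1 GFP+ and 1 GFP- library from each of 5 mice. The authors deposited 1 table of read counts per gene, whole numbers without normalization. Per the labels' protocols, RNA was pre-amplified with a SMARTer low-input kit and tagged with Nextera XT, which marks no strand, and no molecular identifiers are named. Named in the submitters' processing notes are the build GRCm39, featureCounts, Subread 2.0.1, STAR 2.7.9a and fastp 0.23.1. The annotation release is not given in the sources used here, nor are the strand setting and the handling of multi-mapping reads, so overlapping genes and genes with near-identical copies, such as calmodulin pseudogenes, are uncertain.

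The test was edgeR's two-sided quasi-likelihood F-test (edgeR 4.0.16, R 4.3.3) with TMM factors and filterByExpr, and without pairing. Adjustment was by Benjamini-Hochberg over all 12115 genes kept, with a threshold of 0.05. The mouse as a replicate block was an alternative. The titles give both libraries of a mouse 1 identifier, which makes them pairs. Their deviations from the group means, checked across genes, correlated with r between 0.0741 (21A5) and 0.637 (21A7). Other alternatives were DESeq2 1.42.0, limma voom 3.58.1 with quality weights, other scalings and filters, removal of mitochondrial genes, single series, and leaving out single mice or libraries. Log2 CPM used a prior count of 2, and count ratios within a library a pseudocount of 0.5. The SE of a log2 fold change was obtained from it and the F statistic.

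The members and the gene lists were chosen with earlier results of these data known. Named are all members, the 2 pathway genes per list with the smallest unpaired p, those past a threshold in the unpaired or blocked fit, and Calm2, Calm3, Ppp3r1, Camk2n1, Nfatc3, Mef2a and Prkaa2. Genes named only as called by DESeq2, by limma voom, in the series test or for groups without overlap, Prkab1 and Prkag1, the alternative without 21A5 or 21A7, the ratios within a library, the blocked fits with a mouse left out and the merged-exon lengths were added after seeing the data. The results of some genes that the rule or the lists name are not reported here. Transcript lengths come from GENCODE (GRCm38) and promoters from RefSeq (GRCm38.p6). The fits were tested on simulated counts. Total counts per library were 12244373 to 38879965, and they alone do not set the precision. The library with the highest total, GFP+ 21A7, had 91.2% mitochondrial counts and the fewest member counts, 1628.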

Additional observations from a re-analysis of the deposited data

Results flagged for a closer look

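In groups of 5 libraries, the highest or lowest value was compared with its nearest neighbour by Dixon's criterion, which flags about 1 in 20 groups by chance. It was applied to every member in GFP+ and in GFP- libraries, to the differences within mice and to the Camk2 shares. Some flags by chance are therefore likely. The GFP+ library of 21A7 lay apart from the other 4 for Rcan1, at 34.1 CPM, and for Camk2g, at 16.1 CPM, and the same library had 91.2% mitochondrial counts. Among the differences within mice, Camk1d in 21A5 stood apart at 3.23 on the log2 scale, while the other 4 mice were below 0. The GFP effect differed between the mouse series for Prkaa2, by 1.48 (log2, 21A minus 17C; edgeR interaction adjusted p = 0.0430). This call was lost when any 1 mouse was left out, without the mouse block (edgeR adjusted p = 0.584) and with DESeq2 size factors in edgeR (0.0502), but not with DESeq2's own test (0.00889), and on library totals the difference was -0.71 (0.707).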

How the results depend on the processing

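Without pairing, 10 genes passed in edgeR (991 unadjusted), 104 with the mouse as a replicate block, 205 with DESeq2, 336 with limma voom, 635 with library totals (11 higher, 624 lower), 38 with no filter on low counts, 19 with at least 5 CPM in 5 libraries, 1059 in the 17C mice alone and 0 in the 21A mice alone (1621 unadjusted). Leaving out a mouse or library gave 0 to 58, the highest without 21A7. Of the 10 members, 0 passed (2 unadjusted), 1 with the paired fit (replicate block), 2 with DESeq2, 2 with limma voom, 1 with no filter, 1 with the 5 CPM filter, 2 in the 17C mice alone and 0 to 1 with a mouse or library left out. Camk1 is that 1 gene each time. Of 90 pathway genes, 0 passed (13 unadjusted), 2 with the replicate block, 4 with DESeq2, 4 with limma voom, 2 with library totals, 18 in the 17C mice alone and 0 to 1 with one left out. For the difference between series 923 genes passed, 0 with no replicate block (1713 unadjusted), 473 with library totals (0 of them more positive in the 21A mice), 1936 with DESeq2 and 0 to 1035 with a mouse left out, and 0 members passed under each of these (2 unadjusted in the blocked edgeR fit, 1 with DESeq2). The cause of these shifts was not tested. Among log2 fold changes, 231 of 247 alternative values of members stayed within the SD between mice, whether or not the gene was called. Of those of named pathway genes, 429 of 468 stayed within the SD between mice and on the same side of the threshold. Camk1, Rcan1, Ppp3ca and Ppp3cb kept their sign in all 25 alternatives. The SD between mice was wide for Camk1d (1.97) and Camk2b (1.56), so that values within it could have the opposite sign. The sign changed in 4 of 24 alternatives for Camk1d and in 6 of 24 for Camk2b. For Camk2a, Camk2d, Camk2g and Camkk2 it changed in 1 each. Camk1d stood at 1.73, at -0.24 with the replicate block and at -0.97 without 21A5. Depth limits Camk2b most, with 4 counts in its lowest library.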
